A study of Mus musculus with 6 samples.

Results

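The genes described here are Ptgr1, the reductase that activates the drug LP-184, and 9 genes of the NRF2 pathway of electrophile and oxidant defence: Nfe2l2, Keap1, Nqo1, Hmox1, Gclc, Gclm, Txnrd1, Srxn1 and Slc7a11. They were chosen by symbol, and all 10 are among the 12656 genes of the expression table. RNA sequencing was done on the mouse mammary carcinoma line 4T1, a line that stands in for breast cancer of the triple-negative class. The groups are 3 libraries from cultured 4T1 cells treated for 48 h with LP-184, a DNA-damaging prodrug, and 3 libraries from 4T1 cells given the solvent DMSO. Both groups are the same unmodified line, and no source used here states the dose of LP-184. Polyadenylated RNA was sequenced, and levels are given as CPM, which are reads scaled to an effective library size that differs slightly from the summed reads. Since no label tells if the replicates came from separate cultures, each p-value measures the spread between libraries, which may be technical.

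Ptgr1 encodes prostaglandin reductase 1, an NADPH-dependent enzyme that reduces reactive carbonyl compounds and that turns LP-184 into its DNA-alkylating form. NRF2, the product of Nfe2l2, is a transcription factor that the adaptor KEAP1 presents to a CUL3 ubiquitin ligase for degradation. Electrophiles modify cysteines of KEAP1, NRF2 then accumulates, pairs with small MAF proteins and binds antioxidant response elements of genes for glutathione synthesis, thioredoxin reduction, quinone reduction and haem breakdown. PTGR1 is itself described as an NRF2 target in human and rodent cells, so that the activating enzyme of the drug and the defence against electrophiles share a regulator.

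The libraries held 18864368 to 22471753 reads over the genes of the table. Of 11931 genes tested, 9341 (78.3%) differed between LP-184 and DMSO at an adjusted p under 0.05 by limma with Benjamini-Hochberg adjustment. Of all genes tested, 38.3% were higher and 40.0% lower with LP-184. All 5 epithelial markers examined were expressed, with a summed level of 2457 to 2475 CPM with LP-184 and 2689 to 2722 CPM with DMSO. They moved both ways. Krt8 and Krt18 were lower with LP-184, with log2 fold changes of -0.47 and -0.34. Epcam, Cdh1 and Cldn7 were higher, at 0.36, 0.38 and 0.23. Of 6 immune cell markers only Lyz2 was measured here, with 0 reads with LP-184 and 96 reads with DMSO over 3 libraries each. Of 5 fibroblast and endothelial markers only Pdgfra was measured here, at 8.12 to 10.3 CPM with LP-184 and 6.37 to 7.62 CPM with DMSO. Among the receptors that define the cancer class, Esr1 averaged 0.381 ± 0.169 CPM with LP-184 and 10.5 ± 1.11 CPM with DMSO, and Erbb2 30.7 ± 2.23 CPM with LP-184 and 41.5 ± 0.506 CPM with DMSO (SD, n = 3 each). Pgr was examined too and was not in the expression table. Esr1 spans 394 kb. Its log2 fold change of -4.51 became -1.95 once the dependence of fold changes on gene span, described further on, was removed.

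Most of the 10 genes were higher with LP-184. 8 were higher and 2 lower, against 38.3% of all genes tested that were higher and 40.0% that were lower, and the median log2 fold change of the 10 was 0.55, against -0.006 over all genes tested. Nqo1 and Hmox1 rose by more than 2-fold and Ptgr1 by 1.95-fold, while Slc7a11 fell. A rise of 2-fold or more was seen in 8.08% of all genes tested and a fall of that size in 12.6%, and no member fell that far. The LP-184 libraries all lay above the DMSO libraries for 8 genes and all below them for Slc7a11, while for Srxn1 the groups overlapped. Over all genes tested, the LP-184 libraries lay above in 38.9% and below in 40.2%, so that the groups did not overlap in 79.1%. In bulk RNA of a culture, a change in the number of cells that express a gene and a change in RNA per cell cannot be told apart.

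**Figure D1:**
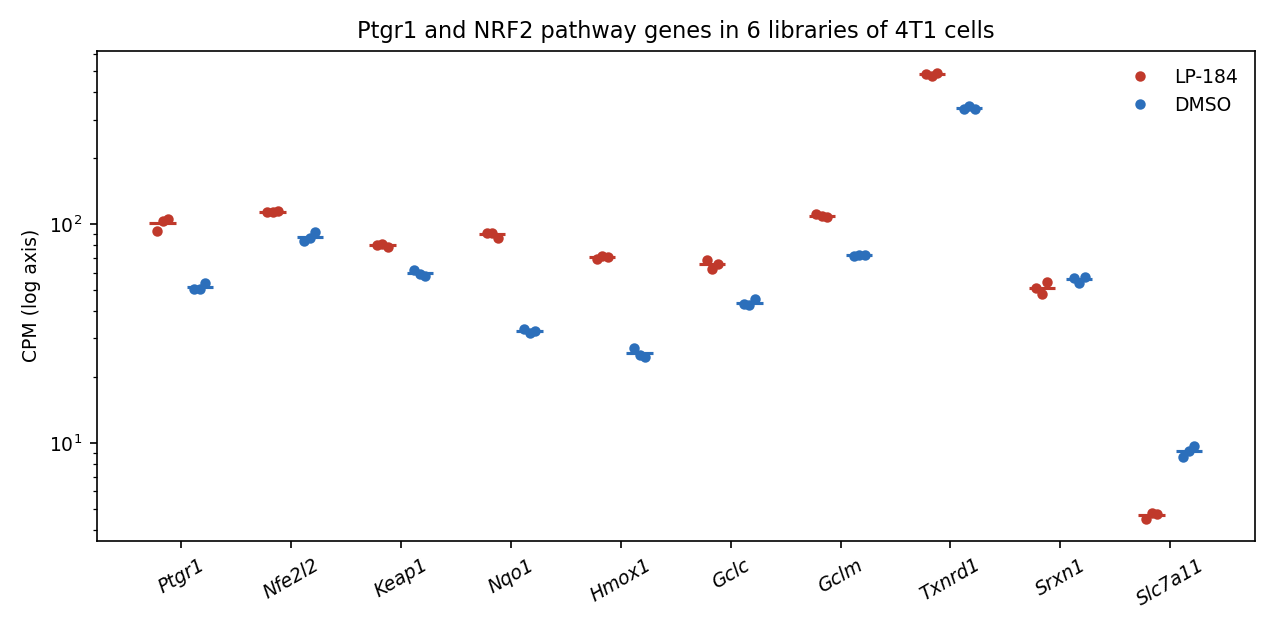
Level of each gene in CPM (vertical log axis) in the 3 LP-184 libraries (red, left of each pair) and the 3 DMSO libraries (blue, right); points are libraries and short lines are group means. The LP-184 points lie above the DMSO points for 8 genes, overlap with them for Srxn1 and lie below them for Slc7a11.

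Ptgr1, the activating reductase (chromosome 4, 58965439 to 58987119, reverse strand, GRCm38), had 93.4, 103 and 106 CPM in the LP-184 libraries, against 50.5, 50.3 and 54.0 CPM in the DMSO libraries. The lowest LP-184 library thus lay well above the highest DMSO library. The values rest on 6309 reads with LP-184 and 3032 reads with DMSO over 3 libraries each. Its log2 fold change was 0.96 ± 0.05 (SE, n = 3 each, limma adjusted p = 1.8e-19), with a 95% interval of 0.87 to 1.06. Of all genes tested, 8.72% had a log2 fold change as high or higher. Ptgr2 and Ptgr3 encode related prostaglandin reductases. Ptgr2 had a log2 fold change of 0.08 ± 0.07 (limma adjusted p = 0.293), and Ptgr3 fell by 0.35 ± 0.05 on the log2 scale (limma adjusted p = 3.6e-07), so the rise among these 3 reductase genes was that of Ptgr1. In every one of 18 alternative ways of processing, Ptgr1 was higher with LP-184, by 0.77 to 1.05 on the log2 scale. Some of these ways, such as another filter or threshold, cannot change a log2 fold change.

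The proximal promoters of the 6 members whose windows held a match to any of 3 response elements are shown. Not shown are Nqo1 and Keap1, whose windows held no match, and Hmox1 and Gclc, for which no window was available. All of these rose with LP-184. RefSeq windows on GRCm38.p6 of 250 bases before to 50 bases after the transcription start were available for 8 of the 10 genes. They were searched on both strands for the antioxidant response element core TGACNNNGC, for the AP-1 site TGACTCA, which can overlap that core, and for the composite element TGATGCAA bound by the stress factor ATF4 with C/EBP partners. Matches are in capitals, and no match overlapped another in these windows. The windows are chr4:58987029-58987328 (reverse strand) for Ptgr1, chr2:75704614-75704913 (reverse strand) for Nfe2l2, chr3:122245307-122245606 (forward strand) for Gclm, chr10:82858956-82859255 (forward strand) for Txnrd1, chr2:152105274-152105573 (forward strand) for Srxn1 and chr3:50443564-50443863 (reverse strand) for Slc7a11. Each is printed 5′ to 3′ on the strand of its gene, and of 3 Txnrd1 windows the 1 with a match is given.
Ptgr1: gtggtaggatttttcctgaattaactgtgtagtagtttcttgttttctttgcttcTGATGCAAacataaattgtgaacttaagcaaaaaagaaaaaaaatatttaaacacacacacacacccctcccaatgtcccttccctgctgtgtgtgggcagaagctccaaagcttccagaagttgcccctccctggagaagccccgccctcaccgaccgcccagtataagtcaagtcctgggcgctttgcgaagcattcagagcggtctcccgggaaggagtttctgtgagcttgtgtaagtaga
Nfe2l2: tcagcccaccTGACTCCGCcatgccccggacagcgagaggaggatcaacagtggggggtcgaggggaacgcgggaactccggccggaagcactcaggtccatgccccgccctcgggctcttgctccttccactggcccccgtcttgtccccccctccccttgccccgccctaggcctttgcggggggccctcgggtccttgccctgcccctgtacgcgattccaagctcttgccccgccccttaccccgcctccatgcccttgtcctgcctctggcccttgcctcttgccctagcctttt
Gclm: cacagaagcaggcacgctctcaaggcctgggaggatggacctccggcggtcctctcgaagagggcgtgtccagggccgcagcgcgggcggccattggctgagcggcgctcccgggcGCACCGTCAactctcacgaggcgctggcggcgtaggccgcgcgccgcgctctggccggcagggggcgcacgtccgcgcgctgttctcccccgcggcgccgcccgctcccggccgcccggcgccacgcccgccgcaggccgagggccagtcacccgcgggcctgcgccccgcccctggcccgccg
Txnrd1: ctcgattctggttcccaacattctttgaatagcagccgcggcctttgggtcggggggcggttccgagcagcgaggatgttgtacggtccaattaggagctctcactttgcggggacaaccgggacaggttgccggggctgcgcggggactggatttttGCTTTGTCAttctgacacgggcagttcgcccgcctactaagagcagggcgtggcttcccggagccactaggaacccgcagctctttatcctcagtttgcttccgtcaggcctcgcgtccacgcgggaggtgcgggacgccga
Srxn1: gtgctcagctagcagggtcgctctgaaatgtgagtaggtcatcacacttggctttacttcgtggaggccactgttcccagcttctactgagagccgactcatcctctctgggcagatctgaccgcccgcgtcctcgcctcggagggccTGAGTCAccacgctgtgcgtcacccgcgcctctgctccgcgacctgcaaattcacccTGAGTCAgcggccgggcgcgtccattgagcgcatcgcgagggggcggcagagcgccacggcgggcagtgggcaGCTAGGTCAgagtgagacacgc
Slc7a11: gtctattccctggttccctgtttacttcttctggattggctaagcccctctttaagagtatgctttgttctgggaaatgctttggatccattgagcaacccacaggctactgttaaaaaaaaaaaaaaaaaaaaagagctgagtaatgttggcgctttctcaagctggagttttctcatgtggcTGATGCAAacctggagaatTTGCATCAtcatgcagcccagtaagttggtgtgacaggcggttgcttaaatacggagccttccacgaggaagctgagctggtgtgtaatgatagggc

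The antioxidant response element core was found in windows of Nfe2l2, Gclm, Txnrd1 and Srxn1, 4 of 8 genes. Counted by window, it was in 4 of the 10 windows of the 8 genes and in 12.4% of all 32851 promoter windows. The Gclm match GCACCGTCA, on the opposite strand, begins 134 bases before the start. Among these 4 genes, Nfe2l2, Gclm and Txnrd1 rose with LP-184 and Srxn1 did not. Nqo1 and Ptgr1 rose without a match to this core in their windows. The match of Srxn1 lies 28 bases after the start and those of the other genes before it. A link of a match or its position to the response was not tested. Srxn1 alone of the 8 held the AP-1 site, in 2 copies that begin 102 and 45 bases before the start, while 5.20% of all windows held it. The ATF4 composite element was found in Slc7a11, in 2 copies on opposite strands that begin 66 and 47 bases before the start, and in Ptgr1, in 1 copy 195 bases before the start. It was present in 0.895% of all windows. The windows of Nqo1 and Keap1 held none of the 3 motifs. Elements of several NRF2 targets lie farther from the start than these windows reach, so that a missing match says only that the letters are not in the window.

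The regulator and its inhibitor rose by similar amounts in the deposited values. Nfe2l2 (chromosome 2, 75675513 to 75704641, reverse strand) had 113, 114 and 115 CPM with LP-184, against 84.1, 86.2 and 92.4 CPM with DMSO. Its log2 fold change was 0.38 ± 0.04 (SE, n = 3 each, limma adjusted p = 7.8e-11). Keap1 (chromosome 9, 21229730 to 21239361, reverse strand) had 80.0, 81.2 and 78.3 CPM with LP-184, against 61.4, 59.0 and 58.2 CPM with DMSO. The groups overlapped for neither gene, and the log2 fold change of Keap1 was 0.42 ± 0.04 (SE, limma adjusted p = 8.7e-11). The log2 level of Nfe2l2 less that of Keap1 was 0.51 ± 0.03 with LP-184 and 0.56 ± 0.11 with DMSO (SD, n = 3 each), a difference of -0.04 that was smaller than the spread between DMSO libraries (exact permutation test, two-sided, p = 0.70, adjusted p = 0.70 over 3 tests). The design of 3 against 3 allows no p below 0.10. The likeness did not hold once the dependence of fold changes on gene span was removed, as described further on. Nfe2l2 then kept a log2 fold change of 0.31, while Keap1 had 0.08 and did not pass. mRNA levels do not measure NRF2 protein, which is controlled mainly by its degradation.

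Nqo1 and Hmox1 showed the largest rises of the 10. Nqo1, a quinone reductase that uses NADH or NADPH (chromosome 8, 107388225 to 107403206, reverse strand), had 91.1, 91.3 and 86.6 CPM with LP-184, against 33.3, 31.9 and 32.4 CPM with DMSO. Its log2 fold change was 1.46 ± 0.05 (SE, n = 3 each, limma adjusted p = 3.1e-24), which is 2.75-fold. Hmox1, the inducible haem oxygenase that breaks haem down to biliverdin, iron and carbon monoxide (chromosome 8, 75093621 to 75100589, forward strand), had 69.4, 71.7 and 70.4 CPM with LP-184, against 27.2, 25.1 and 24.8 CPM with DMSO. Its log2 fold change was 1.45 ± 0.06 (SE, limma adjusted p = 1.6e-22), which is 2.74-fold. For both genes every LP-184 library was more than 2-fold above every DMSO library. Of all genes tested, 3.35% had a log2 fold change at or above that of Nqo1 and 3.48% at or above that of Hmox1.

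Both subunits of glutamate-cysteine ligase, which makes the first and rate-limiting step of glutathione synthesis, rose by about the same amount. Gclc, the catalytic subunit (chromosome 9, 77754535 to 77794485, forward strand), had 68.4, 62.6 and 65.9 CPM with LP-184, against 43.1, 42.9 and 45.4 CPM with DMSO. Gclm, the modifier subunit that raises the activity of the catalytic one (chromosome 3, 122245557 to 122270732, forward strand), had 111, 109 and 108 CPM with LP-184, against 71.6, 72.2 and 71.9 CPM with DMSO. The groups overlapped for neither subunit. The log2 fold change was 0.58 ± 0.05 for Gclc (SE, n = 3 each, limma adjusted p = 1.2e-12) and 0.60 ± 0.04 for Gclm (limma adjusted p = 3.1e-16). The log2 level of Gclm less that of Gclc was 0.73 ± 0.05 with LP-184 and 0.71 ± 0.05 with DMSO (SD, n = 3 each), so that the 2 subunits moved by amounts that differed by less than the spread between libraries (exact permutation test, two-sided, p = 0.70, adjusted p = 0.70 over 3 tests).

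The cystine importer went the other way. Slc7a11, the light chain of the cystine and glutamate exchanger that supplies cysteine for glutathione (chromosome 3, 49892526 to 50443614, reverse strand), had 4.51, 4.79 and 4.72 CPM with LP-184, against 8.58, 9.23 and 9.63 CPM with DMSO. All LP-184 libraries lay below all DMSO libraries. It had the fewest reads of the 10, with 293 reads with LP-184 and 538 reads with DMSO over 3 libraries each. Its log2 fold change was -0.95 ± 0.14 (SE, n = 3 each, limma adjusted p = 2.4e-07), which is 1.94-fold lower. Slc3a2, the heavy chain with which it forms the exchanger and which also serves other amino acid transporters, rose by 0.76 ± 0.03 on the log2 scale (limma adjusted p = 3.5e-23). The log2 level of Slc7a11 less that of Slc3a2 was -5.91 ± 0.06 with LP-184 and -4.20 ± 0.10 with DMSO (SD, n = 3 each). This gave a difference of -1.71 with no overlap between the groups, at the smallest p the design allows (exact permutation test, two-sided, p = 0.10, adjusted p = 0.30 over 3 tests). The difference was taken on the deposited values. With the dependence on gene span removed, Slc7a11 was at 1.77 and Slc3a2 at 0.46, so its direction turned. On principal transcript spans the values were -0.27 and 0.37, which kept the direction at a smaller size.

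**Figure D2:**
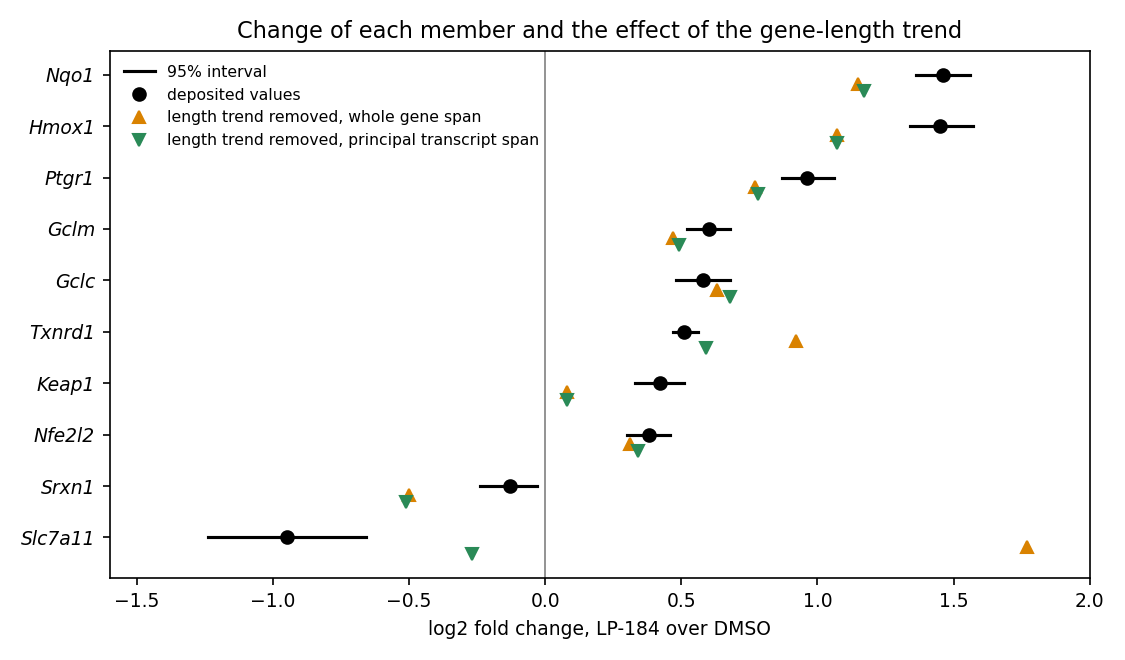
Log2 fold change of each gene, LP-184 over DMSO (horizontal axis), with its 95% interval from limma (black), and the value after the trend of fold change with gene span was removed, using the whole annotated gene (orange) or the principal transcript (green). Nqo1 and Hmox1 stand highest at 1.46 and 1.45, and for Slc7a11 the orange value of 1.77 and the green value of -0.27 lie far apart.

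The 2 genes of the thioredoxin system differed from each other. Txnrd1, the cytosolic thioredoxin reductase, a selenoprotein (chromosome 10, 82833951 to 82897712, forward strand), had 484, 477 and 490 CPM with LP-184, against 336, 345 and 335 CPM with DMSO. The groups did not overlap, and its log2 fold change was 0.51 ± 0.02 (SE, n = 3 each, limma adjusted p = 1.4e-20). Srxn1, the sulfiredoxin that repairs over-oxidised peroxiredoxins (chromosome 2, 152105516 to 152111376, forward strand), had 51.1, 47.7 and 54.3 CPM with LP-184, against 56.7, 54.0 and 57.1 CPM with DMSO. LP-184 replicate 3 lay above DMSO replicate 2, so the groups overlapped. The log2 fold change of Srxn1 was -0.13 ± 0.05 (SE, limma adjusted p = 0.020), with a 95% interval of -0.24 to -0.03. By limma, this call was lost with median centring of the libraries (-0.05, adjusted p = 0.412), without the mean-variance trend (-0.13, adjusted p = 0.082), without LP-184 replicate 2 (-0.09, adjusted p = 0.151), without DMSO replicate 1 (-0.12, adjusted p = 0.056) and without DMSO replicate 3 (-0.12, adjusted p = 0.068). Over 18 alternatives its adjusted p ranged from 4.2e-08 to 0.412, and its log2 fold change from -0.51 to -0.05.

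Set per length of the principal transcript, which makes levels comparable between genes, Txnrd1 was the most abundant of the 10 in both groups, at 137 ± 1.94 CPM per kb with LP-184 and 95.9 ± 1.49 CPM per kb with DMSO (SD, n = 3 each). With LP-184, Nqo1 followed at 57.7 ± 1.73 CPM per kb. Nfe2l2, Hmox1 and Ptgr1 came next, at 46.0 ± 0.431, 44.9 ± 0.738 and 43.9 ± 2.83 CPM per kb, and neighbours in this group of 3 overlapped in their library ranges. Keap1 stood at 22.1 ± 0.391 CPM per kb, and Gclm, Gclc and Srxn1, at 19.5 ± 0.246, 19.2 ± 0.854 and 18.2 ± 1.18 CPM per kb, again overlapped as neighbours. With DMSO the order was Txnrd1, Nfe2l2 (35.4 ± 1.74 CPM per kb), Ptgr1 (22.5 ± 0.910), Nqo1 (20.9 ± 0.456), Srxn1 (19.9 ± 0.607), Keap1 (16.5 ± 0.467), Hmox1 (16.4 ± 0.830), Gclm (12.9 ± 0.0609), Gclc (12.8 ± 0.411) and Slc7a11. In that order Keap1 and Hmox1 overlapped, as did Gclm and Gclc, and the other neighbours did not. Slc7a11 was lowest in both groups, at 0.507 ± 0.0156 CPM per kb with LP-184 and 0.992 ± 0.0574 CPM per kb with DMSO. Using all annotated exons of a gene in place of the principal transcript placed Ptgr1 above Nfe2l2 with LP-184, and left Txnrd1 first and Slc7a11 last in both groups. On that length Txnrd1 was lower, at 68.3 ± 0.968 CPM per kb with LP-184 and 47.8 ± 0.744 CPM per kb with DMSO, and Nqo1 stayed at 57.7 ± 1.73 CPM per kb with LP-184.

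Fold changes of the whole series followed gene span, so the members are set against that trend. The median log2 fold change was 0.32 among 764 genes with a median span of 7.93 kb and -1.91 among the 764 longest genes, with a median span of 211 kb. At the spans of Nqo1, Hmox1 (6.97 kb) and Ptgr1 (21.7 kb) the fitted trend was 0.31, 0.38 and 0.20. With the trend removed, their log2 fold changes were 1.15, 1.07 and 0.77, each still past the threshold. Gclc, of 40.0 kb, moved little, with 0.63, whereas Gclm, of 25.2 kb, had 0.47, so the 2 subunits were less alike with the trend removed. Keap1, of 9.63 kb, had 0.42 with the trend, which was 0.35 at its span, and 0.08 without it (limma adjusted p = 0.125), so its call was lost. Srxn1, of 5.86 kb, had -0.50 with the trend removed (limma adjusted p = 4.4e-08). Txnrd1 spans 63.8 kb as a gene and 37.4 kb as its principal transcript, and had 0.92 and 0.59 with the trend removed on each span.

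The value of Slc7a11 depended on the gene model. Its annotation runs over 551 kb, whereas its principal transcript covers 78.7 kb. On the first span the trend was -2.73 and the value after removal 1.77 (limma adjusted p = 5.2e-14). On the second span the trend was -0.68 and the value after removal -0.27 (limma adjusted p = 0.052). The fall in the deposited values is thus as measured, but whether Slc7a11 stood above or below genes of its length turned on which transcript is taken as its length. Which transcript 4T1 cells use was not examined here.

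**Figure D3:**
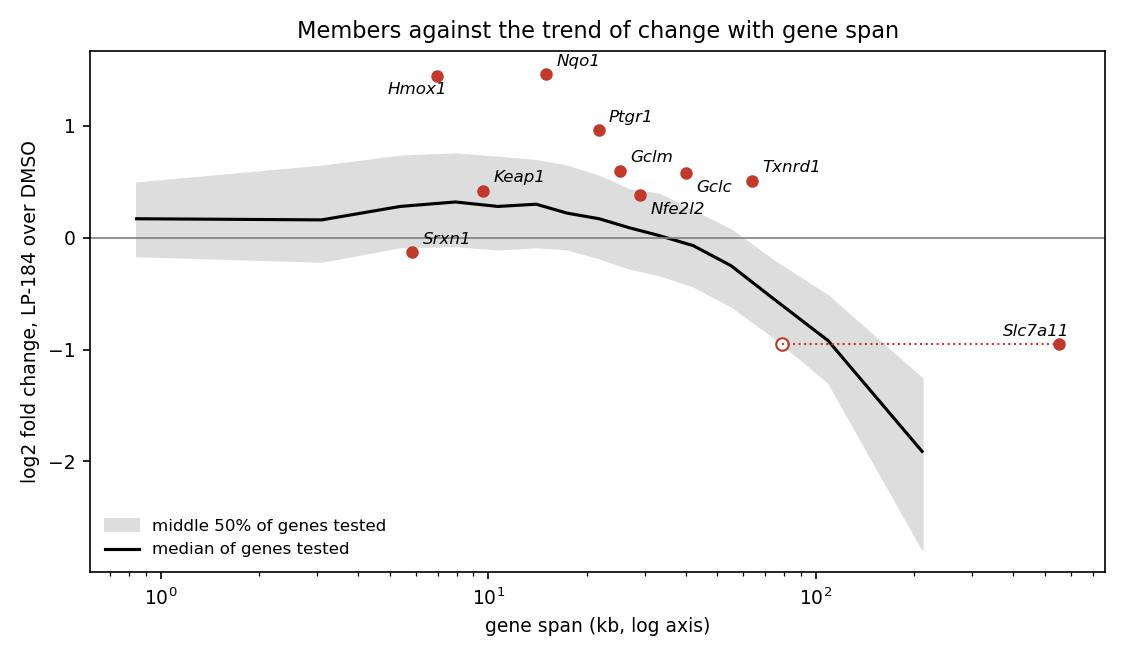
Log2 fold change, LP-184 over DMSO, against gene span in kb (log axis) for the 10 genes (red points); the black line joins the medians of 15 groups of genes ordered by span and the grey band runs between the quartiles of each group. Nqo1, Hmox1, Ptgr1, Gclc, Gclm and Txnrd1 lie above the band, Nfe2l2 and Keap1 within it and Srxn1 just below it. Slc7a11 is drawn at its annotated span of 551 kb (filled) and at its principal transcript's 78.7 kb (open).

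The other genes of the pathway, taken as 7 lists of 92 genes of which 85 were tested, moved both ways. 44 (51.8%) were higher and 26 (30.6%) lower, against 38.3% and 40.0% of all genes tested, and 15 did not pass. The median log2 fold change was 0.12. With the length trend removed, 32 were higher and 33 lower of the 83 that have a span. Over all 11462 genes tested in that setting, 4045 were higher and 4463 lower. Changes called a rise or a fall passed limma at an adjusted p under 0.05. Genes other than those the naming rule selects were picked after their values were seen.

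Among 14 regulators of NRF2, 6 were higher and 7 lower. The small MAF partners of NRF2 rose, with log2 fold changes of 1.31 ± 0.04 (SE) for Maff, 1.29 ± 0.04 for Mafk and 0.51 ± 0.04 for Mafg. Sqstm1, an autophagy receptor that binds KEAP1, rose 2.00-fold, with a log2 fold change of 1.00 ± 0.02. Among genes that act in NRF2 degradation the directions differed. Rbx1, the RING subunit of cullin ligases, rose by 0.27 ± 0.03 on the log2 scale, as Keap1 did. Cul3, the scaffold of the KEAP1 ligase, fell by 1.23 ± 0.04, to 71.5 ± 2.59 CPM with LP-184, against 168 ± 4.61 CPM with DMSO (SD, n = 3 each). Btrc, the substrate receptor of a second ligase that degrades NRF2, fell by 2.44 ± 0.12, and Gsk3b, the kinase that marks NRF2 for it, fell by 1.53 ± 0.06. Crebbp, a coactivator of NRF2, fell by 1.03 ± 0.10, and Nfe2l3, an NRF2 relative, had a log2 fold change of -1.19 ± 0.22. With the length trend removed Cul3 was at -0.67 and Btrc at -0.95, and Gsk3b (-0.11) and Crebbp (0.14) did not pass. Of the genes above that rose, Maff was then at 0.99, Mafk at 0.96, Sqstm1 at 0.67 and Mafg at 0.14. Rbx1 turned to -0.06. Bach1, a repressor that competes with NRF2 at Hmox1, fell by 0.21 ± 0.07.

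Of 16 genes of glutathione synthesis and use, 8 were higher and 3 lower, and the list's median was 0.25 (log2 fold change). Gpx2, a selenium-dependent glutathione peroxidase that was nearly absent with DMSO, had a log2 fold change of 3.07 ± 0.40 (SE), with 1.84 ± 0.154 CPM with LP-184 and 0.138 ± 0.0661 CPM with DMSO (SD, n = 3 each), on 116 reads with LP-184 and 8 reads with DMSO. Its log2 fold change was 1.32 with a pseudocount of 1 CPM and 3.58 by voom, so its size depends on the value given to so few reads. Gpx2 was tested only because its LP-184 libraries met the filter, so that a call of higher was nearly fixed in advance. It is among the 8 genes counted as higher. Mgst3, a microsomal glutathione transferase, fell by 1.32 ± 0.05. Gss, which completes glutathione synthesis, rose by 0.38 ± 0.06, whereas Gsr, which regenerates reduced glutathione, had 0.01 ± 0.03 (limma adjusted p = 0.818). With the length trend removed, 5 genes of this list were higher and 6 lower.

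Of 14 genes of the thioredoxin system and peroxide removal, 8 were higher and 5 lower, most by small amounts. Txnip, an inhibitor of thioredoxin, rose by 2.05 ± 0.07 (SE) on the log2 scale, to 50.6 ± 1.28 CPM with LP-184, against 12.1 ± 0.813 CPM with DMSO (SD, n = 3 each). Txn2, the mitochondrial thioredoxin, rose by 0.67 ± 0.03. The main cytosolic thioredoxin Txn1 fell by 0.18 ± 0.03, and Prdx1, a peroxiredoxin and a known NRF2 target, had -0.01 ± 0.02 (limma adjusted p = 0.511). With the length trend removed, 3 genes of this list were higher and 9 lower.

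Of 8 genes listed under the supply of NADPH, the cofactor of PTGR1 and of thioredoxin reductase, 5 were higher and 2 lower. NADPH itself was not measured. Mthfd2, a mitochondrial enzyme of folate metabolism, had a log2 fold change of 1.16 ± 0.03 (SE), and G6pdx and Pgd of the pentose phosphate pathway rose by 0.54 ± 0.03 and 0.36 ± 0.02. Me1, malic enzyme, fell by 0.88 ± 0.04, a direction that turned to 0.11 with the length trend removed. Of 9 genes of haem and iron handling, 4 were higher and 3 lower, against 2 higher and 4 lower with the length trend removed. Ftl1, the ferritin light chain, rose by 0.74 ± 0.02, while Fth1, the heavy chain, had -0.04 ± 0.02 with overlapping groups, a direction that turned to 0.05 with median centring. Blvrb, a biliverdin reductase, fell by 0.64 ± 0.15. Ferritin genes have many processed copies in the genome, which makes their read assignment uncertain.

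Of 18 other reductases and enzymes of electrophile detoxification, 10 were higher and 4 lower, and the lower count was 2 without LP-184 replicate 2, with median centring and without the mean-variance trend. Adh7, an alcohol dehydrogenase that oxidises retinol, rose by 1.63 ± 0.05 (SE) on the log2 scale, to 91.0 ± 1.13 CPM with LP-184, against 29.4 ± 1.26 CPM with DMSO (SD, n = 3 each). Akr1b1, aldose reductase, rose by 1.24 ± 0.02, to 995 ± 4.87 CPM with LP-184, against 422 ± 6.70 CPM with DMSO. It has close paralogs, so its reads may be shared with them. Nqo2, the relative of Nqo1 that uses another cofactor, fell by 0.74 ± 0.07, while Nqo1 rose. Of 6 transport genes, 3 were higher and 2 lower, against 5 higher and 0 lower with the length trend removed. The export pumps Abcc4 and Abcc1, which carry glutathione conjugates, had log2 fold changes of -1.59 ± 0.11 and -0.88 ± 0.04, and with the length trend removed both turned, to 0.36 and 0.11.

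**Figure D4:**
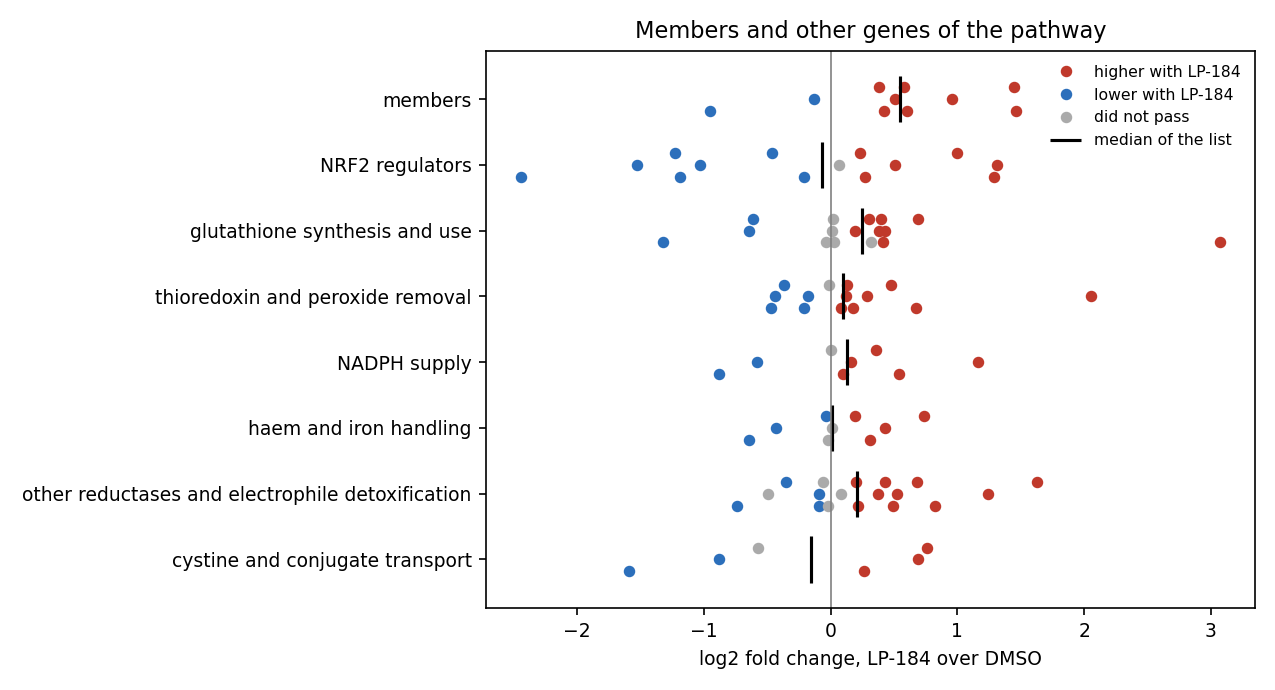
Log2 fold change, LP-184 over DMSO (horizontal axis), of each gene tested in the 10 members and in 7 lists of other pathway genes; red points were higher and blue points lower at an adjusted p under 0.05, grey points did not pass, and black bars are list medians. The members have the highest median, 0.55, and the regulators spread widest to the lower side, down to Btrc at -2.44.

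By the Euclidean distance over 6 libraries between log2 levels centred on the DMSO mean, among 8627 genes, the genes with the pattern most like that of Ptgr1 were Zfp358 (distance 0.0936), Plagl2 (0.0938), Tuft1 (0.101), Trim11 (0.105) and Fbxw9 (0.111), with log2 fold changes of 0.93 to 0.97. The median distance over these genes was 1.70. Of the other 9 members, Gclm was nearest, at 0.654, and 1157 of the genes compared lay nearer. A small distance reflects mostly the size of the change, since 2 groups of 3 libraries hold little else. In the authors' deposited table the log2 fold changes of the 10 genes differed from those given here by at most 0.02, with 0.96 for Ptgr1 (adjusted p = 1.4e-33), 1.47 for Nqo1 and -0.97 for Slc7a11. Gclm and Keap1 share exon bases with annotated antisense genes, 296 bases with Gm17494 for Gclm and 510 bases with Gm16754 for Keap1. Gclm also shares 244 bases with Gm6061 on its own strand, and no source used here states if the counting used strand. Gm17494 held 70 reads with LP-184 and 57 reads with DMSO, against 6852 and 4228 reads for Gclm.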

How the data were processed

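Per the file headers, the authors deposited log2 CPM values for 12656 genes in 6 libraries, and a table of their own comparison with p-values and adjusted p-values, whose test no source used here names. Tools listed in the submitters' processing notes are edgeR, featureCounts, Subread 2.0, STAR 2.7, fastp, Cell Ranger 7.0, Seurat 5.1.0 and, as builds, hg38 and mm10, without saying what each did. Control columns were assigned to DMSO libraries by group and number. Among the deposited log2 values, -3.34 stands for 0 reads in each library. Undoing the logarithm and taking this floor off turned 100% of values into whole reads, to within 1e-06 of a read, which gave the reads and CPM used here. The effective library size in these CPM was 1.007 to 1.016 times the summed reads in LP-184 libraries. In DMSO libraries it was 0.984 to 0.994 times, so the scaling differs by group. Use of molecular tags is not stated, so counts speak of reads and not of molecules.

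Testing was limited to the 11931 genes that reached log2 CPM 0 in 3 libraries or more. The deposited log2 values were fitted with limma 3.58.1 in R 4.3.3 (2 groups, mean-variance trend in the empirical Bayes step, two-sided, Benjamini-Hochberg over all genes tested, threshold 0.05). The authors' prior count understates changes of low genes. The members, lists, motifs and tests were chosen with earlier results of these data known. The naming rule took in each list the called genes changed by 2-fold or more, or the 2 with the largest change, and the 5 genes nearest to Ptgr1.

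Positions and spans are from GENCODE M21 (GRCm38), which matched 12134 of 12656 genes (95.9%) by symbol. Akr1b1 was listed as Akr1b3 and found in the expression table through a RefSeq synonym. Akr1b1 and Ptgr3 had no span, so neither could be set against the length trend. The length trend was fitted by loess (smoothing 0.3, 11462 genes, log10 gene span), subtracted from the LP-184 libraries. Principal transcripts are the longest that the annotation marks as principal (10466 genes). On simulated LP-184 against DMSO counts for 11655 genes, 98.5% of 67 genes changed 1.5-fold and 100% of those changed 2-fold or 4-fold were recovered with the correct sign, and 7.44% of the 215 genes called had not been changed. With no change simulated in 11670 genes, 0 were called. The simulation changed few genes, at a fixed spread and with no length trend, whereas 78.3% of genes tested were called in the data. Its rates therefore do not describe this comparison. Alternatives were 2 other scalings, 2 pseudocounts, 2 other filters, no variance trend, limma's voom on the recovered reads, a replicate block, a threshold of 0.01, leaving out each library, and length trend removal on both spans. Summaries used scipy 1.17.1, numpy 2.4.6 and pandas 2.3.3 under Python 3.11.15.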

Additional observations from a re-analysis of the deposited data

How the results depend on the processing

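The 8 higher members kept their direction under all 18 alternatives, and 7 of them their call, the exception being Keap1 with the length trend removed on either span. Not all 18 can turn a direction, since another threshold, filter or variance setting leaves the log2 fold change as it is. Over the fits that each leave out 1 library, Ptgr1 ranged from 0.93 to 1.02. The count of lower members was 1 in place of 2 with median centring, without the variance trend, at a threshold of 0.01 and with the length trend removed on either span, and 1 to 2 when a library was left out, in each case through Srxn1 or Slc7a11. With the length trend removed, Slc7a11 turned to 1.77, and on principal transcript spans, a setting added once the data had been seen, was -0.27. Among genes the naming rule selects, directions also turned for Crebbp (0.14, and 0.27 on principal transcript spans), Me1 (0.11 and 0.22), Abcc1 (0.11 and 0.23) and Abcc4 (0.36 and 0.53). Gsk3b turned on principal transcript spans (0.03), and Rbx1, outside that rule, on both spans (-0.06 and -0.04). Fewer genes are tested on principal transcript spans, and the cause was not tested. With 1 library left out, Gclm less Gclc ranged from -0.01 to 0.04 and Nfe2l2 less Keap1 from -0.09 to 0.01, so neither has a direction.

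Replicate numbers are shared by the groups, but same-numbered libraries did not deviate together (correlations of -0.01, -0.018 and -0.006 over genes). With the replicate block, 4550 genes were higher and 4741 lower, against 4574 and 4767 without it, Ptgr1 was at 0.96, and 8 members were higher and 2 lower. The deposited values hold no dose, so that no relation to dose could be examined, and with 3 libraries in each group differences between libraries rest on few points.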
